A study of Mus musculus with 6 samples.

Results

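The Wnt ligands, their receptors and the genes that carry or damp the Wnt signal were followed as a group of 33 named genes among the 24041 genes of a mouse RNA-seq table. Membership goes by gene name and role and not by a threshold on a measured value, although the names were picked with earlier results of these data known. They are 7 Wnt ligands, 12 receptors and co-receptors, 3 secreted modulators, 6 cytoplasmic components and 5 nuclear factors and feedback genes. All 33 were found in the table and 32 passed the filter on low counts. Lgr5 did not.

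The RNA came from cells of the mouse cerebral cortex that had been electroporated and then sorted by flow cytometry for green fluorescence. One group of 3 libraries had received a plasmid for the fluorescent protein GFP and a plasmid for wild-type PRPF6. The other group of 3 had received GFP and mutant PRPF6. PRPF6 is a protein of the spliceosome, the machine that removes introns, and both groups carried an added PRPF6 gene, so the comparison is between 2 forms of the added protein and has no arm without it. The labels used here do not give the age or strain of the mice, the mutation, the promoter that drove the plasmids or whether each library came from its own animal. If the libraries share animals, the p-values cover no more than the spread of these libraries, which may be technical. In sorted bulk RNA, more cells of a type and more RNA per cell cannot be told apart.

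Wnt proteins are secreted, lipid-modified ligands that bind Frizzled receptors together with the co-receptors LRP5 and LRP6. Binding recruits Dishevelled proteins and stops a complex of Axin, APC and GSK3β from marking β-catenin for destruction, after which β-catenin enters the nucleus and acts with TCF and LEF proteins on target genes such as Axin2. In the developing forebrain, Wnt ligands from the cortical hem pattern the medial cortex and hippocampus, and Wnt signalling in radial glia bears on the balance between division and differentiation.

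The upstream sequence of 4 members is shown because Fzd7 and Sfrp2, like Fzd9, were higher in mutant PRPF6 with and without a library that stood apart, whereas Wnt3 and Wnt8b were far higher in that library than in any other. Each run is the 250 bases before the RefSeq transcript start on the plus strand of GRCm38.p6, at chr1:59481897-59482146 for Fzd7, chr3:83766071-83766320 for Sfrp2, chr11:103773925-103774174 for Wnt3 and chr19:44493222-44493471 for Wnt8b. Capitals mark a match to a TCF/LEF motif, searched as CTTTGAT and CTTTGTT on both strands (ATCAAAG and AACAAAG on the other).
Fzd7: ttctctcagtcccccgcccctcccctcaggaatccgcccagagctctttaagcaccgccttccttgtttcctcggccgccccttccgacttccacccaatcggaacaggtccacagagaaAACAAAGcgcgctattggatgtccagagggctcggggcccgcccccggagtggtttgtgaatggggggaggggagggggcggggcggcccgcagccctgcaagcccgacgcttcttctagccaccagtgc
Sfrp2: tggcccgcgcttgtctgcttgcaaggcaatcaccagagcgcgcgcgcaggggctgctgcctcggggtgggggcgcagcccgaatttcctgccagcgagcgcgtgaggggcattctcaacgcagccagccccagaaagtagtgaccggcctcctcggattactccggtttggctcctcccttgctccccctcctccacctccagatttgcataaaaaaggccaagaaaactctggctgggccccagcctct
Wnt3: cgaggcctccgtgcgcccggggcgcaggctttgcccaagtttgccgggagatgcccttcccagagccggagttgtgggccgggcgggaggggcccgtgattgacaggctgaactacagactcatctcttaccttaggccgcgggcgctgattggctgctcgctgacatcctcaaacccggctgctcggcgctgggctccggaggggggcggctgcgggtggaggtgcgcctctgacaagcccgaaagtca
Wnt8b: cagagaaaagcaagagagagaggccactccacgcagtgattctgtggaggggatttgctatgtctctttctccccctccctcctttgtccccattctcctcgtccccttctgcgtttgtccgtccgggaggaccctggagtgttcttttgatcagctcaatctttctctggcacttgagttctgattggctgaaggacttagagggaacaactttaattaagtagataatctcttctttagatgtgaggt
The Fzd7 run held 1 match, AACAAAG, and the others held none. The RefSeq window of Fzd9 also held none and is not printed, since most of it lies inside the gene's exon in GENCODE. RefSeq windows from 250 bases before to 50 after a start were matched for 21 of the 33 members, which had 27 windows. CTTTGTT was in 3 of these 27 windows, in Fzd7, in Wnt3 at 18 bases past the start and in an internal start of Tcf7l2, against 5.85% of all 32851 windows. CTTTGAT was in 1 of 27, a window of Wnt5b, against 3.73% of all windows. A match is a description of the letters and says nothing of binding.

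The 6 libraries held 45115122 to 60600617 counts, so that 1 count was worth 0.0164 to 0.0228 CPM, counts scaled to the size of the library. The libraries did not all carry the marker genes of cortex to the same degree. Mutant PRPF6 replicate 1 had Neurod6, a gene of cortical projection neurons, at 57.5 CPM against 583 to 1276 CPM in the other 5 libraries. A list of 6 cortical projection neuron genes summed to 346 CPM there and to 1208 to 2949 CPM elsewhere, and 6 of 6 were lowest in that library. A list of 12 genes of the neighbouring diencephalon, Gbx2 and Olig3 among them, summed to 886 CPM there and to 121 to 231 CPM elsewhere, with 11 of 12 highest in that library. Both of these lists were drawn up after the values had been seen. Other cortical lists set mutant replicate 1 less far apart. Cortical progenitor identity genes summed to 936 CPM there and to 1080.5 to 1703 CPM elsewhere, with 2 of 5 lowest there. Intermediate progenitor genes, at 1306 CPM, lay inside the 1044 to 2207 CPM of the others. Newborn neuron genes, Neurod6 among them, summed to 2306 CPM there and to 3182 to 6424 CPM elsewhere, with 5 of 7 lowest there. Cortical hem and choroid plexus genes summed to 818 CPM in the same library and to 588 CPM in wild-type PRPF6 replicate 3, against 44.9 to 149 CPM in the others. Of these 9 genes, 5 were highest in mutant replicate 1 and 3 in wild-type replicate 3, and Ttr, a choroid plexus gene, made up 583 of the 818 CPM and 454 of the 588 CPM. Wild-type replicate 3 also carried the highest sums of meningeal (1665 against 15.5 to 171 CPM) and red blood cell genes (15497 against 68.1 to 2071 CPM). Ventral forebrain and interneuron genes (140 to 846 CPM) and endothelial genes (0.623 to 115 CPM) were also highest in wild-type replicate 3, and microglia genes (20.6 to 611 CPM) in mutant replicate 2. Radial glia genes summed to 1917 to 2694 CPM in wild-type PRPF6 and to 4681, 2609 and 3978 CPM in mutant replicates 1, 2 and 3. The part of these differences in the Wnt values was not tested, and the log2 differences below are therefore given also without mutant replicate 1.

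**Figure D1:**
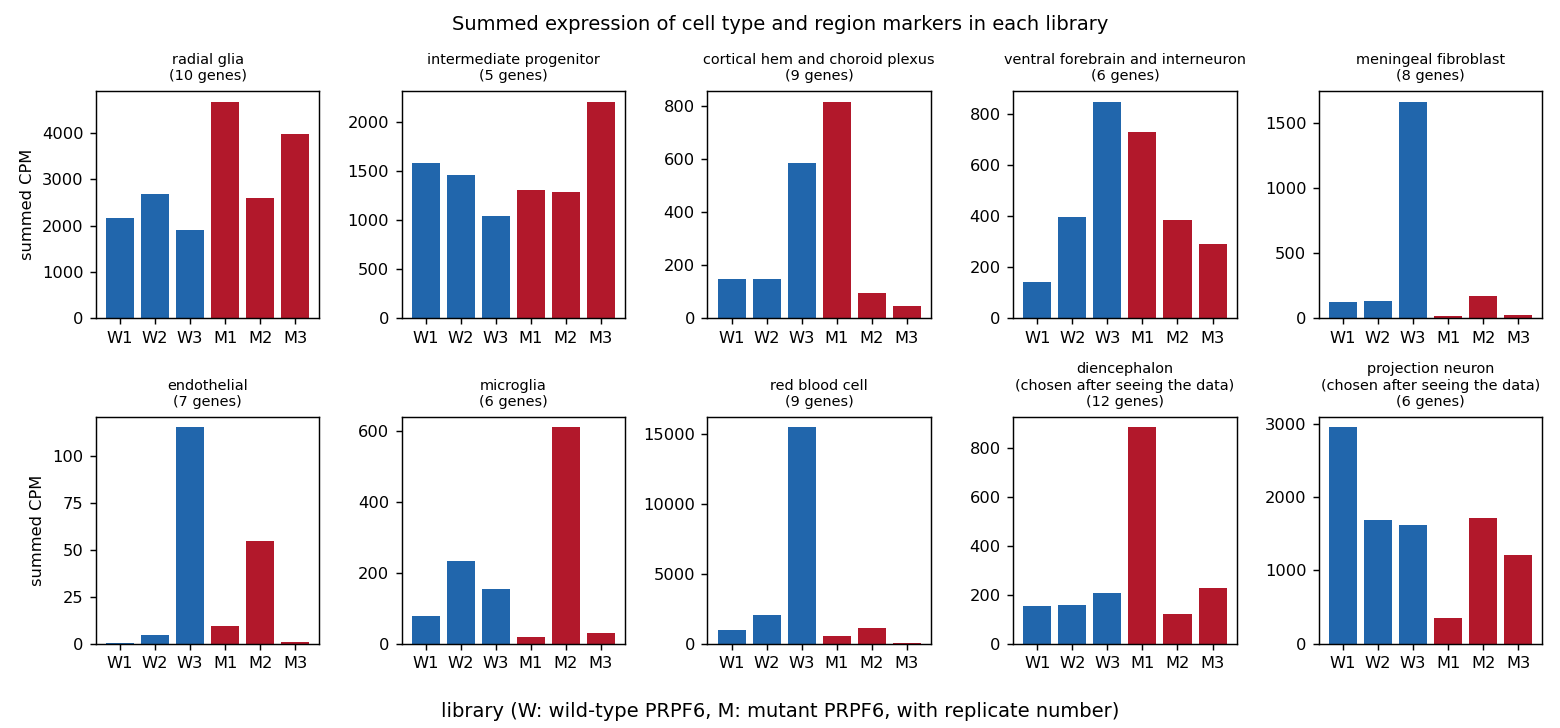
Bars give the summed CPM (linear axis from 0, scaled per panel) of 10 marker lists in each of the 3 wild-type (W) and 3 mutant (M) PRPF6 libraries, with the replicate number. Mutant replicate 1 lies at 886 CPM for the diencephalon list, above the 121 to 231 CPM of the other libraries, and lowest for cortical projection neuron genes at 346 CPM.

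More of the members had higher than lower fitted means in mutant PRPF6, but no single member passed the test after adjustment. The fitted mean was higher in mutant PRPF6 for 24 of the 32 tested members (75.0%), where 49.8% of all 14451 tested genes were higher. The median log2 difference was 0.36 over the members and -0.0013 over all tested genes. In edgeR's quasi-likelihood test, 0 members and 0 of 14451 genes (0.00%) passed a Benjamini-Hochberg adjusted p of 0.05, and 489 genes had an unadjusted p under 0.05. Limma-voom also called 0 genes (551 unadjusted), and DESeq2 called 6 genes (642 unadjusted), none of them a member, with 12 members given no adjusted p by DESeq2. At an unadjusted p under 0.05, 8 members were higher in mutant PRPF6 (25.0%; 2.18% of all tested genes were) and 0 were lower (1.20% of all tested genes). These 8 were the ligands Wnt3 and Wnt8b, the receptors Fzd7 and Fzd9, the secreted modulators Sfrp2 and Dkk3, the signal transducer Dvl1 and the transcription factor Tcf7l2. In 4 members (12.5%) every mutant library lay above every wild-type library, namely Fzd7, Fzd9, Sfrp2 and Dvl1, against 4.60% of all tested genes. No member had every mutant library below, against 4.54% of all tested genes.

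Mutant replicate 1 was the highest of the 6 libraries for 16 of 32 members, against 23.3% of all tested genes. In 9 members (28.1%; 3.40% of all tested genes) it lay more than 2-fold above every other library: Wnt3, Wnt5a, Wnt8b, Fzd10, Sfrp2, Dkk3, Axin2, Tcf7l2 and Lef1. Without it, 33 members could be tested and 22 of them were higher in mutant PRPF6, against 47.7% of all 15116 genes then tested, and the median log2 difference was 0.28. The members with an unadjusted edgeR p under 0.05 were then 4 higher (12.1%; 1.63% of all tested genes), Fzd7, Fzd9, Sfrp2 and Dvl2, and 1 lower, Lgr4 (0.900% of all tested genes). Fzd7, Fzd9 and Sfrp2 were the members at this threshold both with and without mutant replicate 1. No member passed the adjusted threshold without it either.

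**Figure D2:**
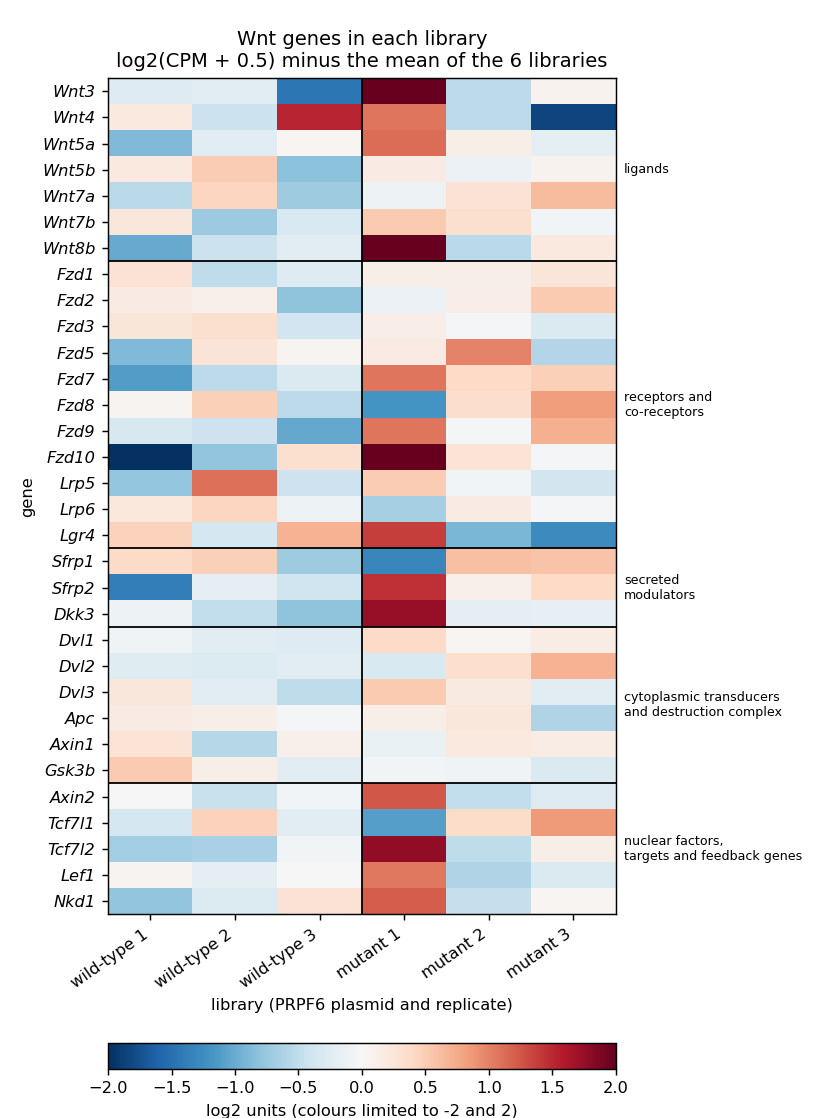
Level of the 32 tested members in each of the 6 libraries, in order of role, as log2(CPM + 0.5) minus the gene's mean over libraries, with colours limited to -2 and 2. The column of mutant replicate 1 holds the highest value of 16 of the 32 tested members, and Fzd7, Fzd9, Sfrp2 and Dvl1 are higher in all 3 mutant libraries than in any wild-type library.

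Among the 7 ligands, 5 had a higher fitted mean in mutant PRPF6 and 2 a lower one, with a median log2 difference of 0.49, or 0.35 without mutant replicate 1. Per length of exon, Wnt7b was the most abundant ligand in wild-type PRPF6, at 41.1 ± 13.7 CPM per kb (SD, n = 3), followed by Wnt7a at 10.0 ± 4.67 CPM per kb. The remaining ligands, Wnt5b, Wnt3, Wnt8b, Wnt5a and Wnt4, had wild-type means from 4.27 down to 0.555 CPM per kb. The ranges of mean ± SD of neighbours in that order overlapped, apart from those of Wnt5a and Wnt4.

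Wnt3 is a ligand of the β-catenin branch (GRCm38 chromosome 11, 103774150 to 103817957, plus strand). It had 10.5, 10.8 and 4.34 CPM in the wild-type libraries and 67.5, 8.68 and 13.3 CPM in the mutant ones. Values are listed here and below in the order of replicates 1, 2 and 3. Only mutant replicate 1 was far from the rest, 5.07-fold above the next highest library, and the other 2 mutant libraries overlapped the wild-type range or lay just above it. The log2 difference was 1.80 ± 0.78 (SE; edgeR unadjusted p = 0.0489, adjusted p = 1.00), and 0.36 ± 0.55 without mutant replicate 1 (unadjusted p = 0.538).

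Wnt8b, a ligand of the cortical hem (chromosome 19, 44493472 to 44514273, plus strand), was at 6.27, 9.53 and 11.1 CPM in wild-type and at 54.2, 8.84 and 15.0 CPM in mutant PRPF6. Its pattern was that of Wnt3: mutant replicate 1 was 3.61-fold above the next library and the groups overlapped. For Wnt8b the log2 difference was 1.54 ± 0.65 (edgeR unadjusted p = 0.0464, adjusted p = 1.00), and 0.41 ± 0.48 without that library (unadjusted p = 0.419). The summed cortical hem and choroid plexus genes were also highest in mutant replicate 1 (818 CPM, 583 of it from Ttr), with 5 of 9 highest there. The hem ligand Wnt3a was not (4.13 CPM there against 7.28 CPM in wild-type replicate 1). Nor was Wnt2b (0.224 CPM against 1.80 CPM in wild-type replicate 3). The sum was next highest in wild-type replicate 3 (588 CPM), the library where Wnt3 was lowest. Diencephalon genes were also highest in mutant replicate 1 (886 against 121 to 231 CPM), with 11 of 12 highest there. The part of either list in the Wnt3 and Wnt8b values was not tested.

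Wnt7b, which is made by cortical neurons and acts on vessels and progenitors, was at 273, 141 and 189 CPM in wild-type and at 335, 290 and 224 CPM in mutant PRPF6. The groups overlapped at 1 wild-type library, and the log2 difference was 0.49 ± 0.26 (edgeR unadjusted p = 0.0944, adjusted p = 1.00), or 0.35 without mutant replicate 1. Wnt7a, the close relative of Wnt7b, was at 24.7, 48.8 and 21.8 CPM against 33.5, 44.1 and 55.9 CPM, with the same log2 difference of 0.49 ± 0.36. Wnt7a differed from the other ligands described so far in that mutant replicate 1 was its lowest mutant library, and its log2 difference was 0.65 without it. Exons of Wnt7b overlap those of AU022754 in the annotation, so reads of these genes could be shared.

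Wnt5a, a ligand known mainly for signalling without β-catenin, was at 8.81, 14.4 and 17.2 CPM against 37.0, 18.1 and 14.6 CPM. Again mutant replicate 1 was highest, and the log2 difference of 0.79 ± 0.44 became 0.28 without it. Its relative Wnt5b was level, at 11.3 ± 4.96 and 11.2 ± 1.11 CPM (SD, n = 3 each), with a log2 difference of -0.02, or -0.09 without mutant replicate 1. Wnt4 was the scarcest ligand, at 1.55, 0.821 and 4.62 CPM in wild-type PRPF6 and at 3.25, 0.744 and 0 CPM in mutant PRPF6. The 0 in mutant replicate 3 allows up to 0.0684 CPM (3 counts). Such limits cover counting error only, since amplified reads are not independent molecules, and the spread of Wnt4 leaves its log2 difference of -0.80 ± 1.75 without a clear sign (-2.64 without mutant replicate 1).

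Of the 11 receptors and co-receptors tested, 7 were higher and 4 lower in mutant PRPF6 by the fitted mean. Their median log2 difference was 0.29, or 0.46 without mutant replicate 1. In wild-type PRPF6, Fzd1 and Fzd2 were the most abundant per length, at 32.1 ± 9.34 and 30.1 ± 10.0 CPM per kb, which did not differ beyond their spread. Fzd8, Fzd3 and Fzd9 followed at 20.3, 19.0 and 15.3 CPM per kb. Lrp6, at 3.97 ± 0.723 CPM per kb, was more abundant than Lrp5 at 0.746 CPM per kb.

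Fzd7, a Frizzled receptor known from stem and progenitor cells (chromosome 1, 59482424 to 59486955, plus strand, a single exon), was at 9.09, 13.9 and 16.4 CPM in wild-type and at 42.8, 26.7 and 28.2 CPM in mutant PRPF6. The lowest mutant library exceeded the highest wild-type library, with a gap between 16.4 and 26.7 CPM. Its means were 13.1 ± 3.73 and 32.6 ± 8.91 CPM (SD, n = 3 each). The log2 difference was 1.31 ± 0.34 (edgeR unadjusted p = 0.00459, adjusted p = 1.00), and 1.06 ± 0.35 without mutant replicate 1 (unadjusted p = 0.0176). This is the gene whose upstream run above holds the AACAAAG match.

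Fzd9, also a Frizzled receptor with a single exon (chromosome 5, 135248938 to 135251230, minus strand), was at 41.3, 38.6 and 25.2 CPM in wild-type and at 109, 50.2 and 84.4 CPM in mutant PRPF6. The groups did not overlap here either, though mutant replicate 2 lay only a little above wild-type replicate 1. For Fzd9 the log2 difference was 1.21 ± 0.32 (edgeR unadjusted p = 0.00525, adjusted p = 1.00), and 0.94 ± 0.32 without mutant replicate 1 (unadjusted p = 0.0199). Summed radial glia genes followed the order of Fzd9 and of Fzd7 among the mutant libraries, highest in replicate 1 and lowest in replicate 2. Of the 10 radial glia genes, 4 were highest in mutant replicate 1, where Fabp7 made up 1536 of the 4681 CPM. Among the wild-type libraries the radial glia sum was highest in replicate 2 and lowest in replicate 3. There Fzd9 was highest in replicate 1 and lowest in replicate 3, and Fzd7 was highest in replicate 3. The part of radial glia genes in the Fzd7 and Fzd9 values was not tested.

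Fzd10, picked out after its values were seen, was at 0.150, 1.89 and 4.68 CPM in wild-type and at 30.5, 4.48 and 3.51 CPM in mutant PRPF6. Mutant replicate 1 exceeded the next library 6.52-fold, and the log2 difference of 2.52 ± 1.26 (edgeR unadjusted p = 0.0802, adjusted p = 1.00) was 0.84 without it. The more abundant Frizzled genes showed smaller differences, with Fzd1 at 135 ± 39.2 and 164 ± 8.84 CPM, Fzd2 at 110 ± 36.7 and 138 ± 31.9 CPM and Fzd3 at 243 ± 59.4 and 220 ± 32.1 CPM in wild-type and mutant PRPF6. Each of these 3 differences lay within the spread of the libraries, with log2 differences of 0.29, 0.32 and -0.15, or 0.30, 0.46 and -0.25 without mutant replicate 1. Fzd8 went the other way in mutant replicate 1, at 121, 162 and 81.0 CPM in wild-type and 50.3, 148 and 207 CPM in mutant PRPF6, where replicate 1 was the lowest library of all 6. The log2 difference of Fzd8 was 0.16, or 0.55 without mutant replicate 1. Fzd5 was near its detection limit, with means of 0.356 and 0.658 CPM and 0 counts in wild-type replicate 1, which allows up to 0.0644 CPM there. Its log2 difference was 0.88 ± 1.90, or 1.01 without mutant replicate 1.

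The co-receptors Lrp5 and Lrp6 had lower fitted means in mutant PRPF6, within their spread, with log2 differences of -0.15 and -0.33, or -0.46 and -0.13 without mutant replicate 1. Lgr4, a receptor for the R-spondins that keep Frizzled receptors at the surface, was at 9.71, 5.27 and 11.5 CPM in wild-type and at 18.7, 3.44 and 2.55 CPM in mutant PRPF6. Mutant replicate 1 was the highest and the other 2 mutant libraries the lowest of the 6. Its log2 difference was accordingly -0.10 with all libraries and -1.56 ± 0.65 without mutant replicate 1 (edgeR unadjusted p = 0.0475, adjusted p = 1.00). The related receptor Lgr5, left out of the test for low counts, had 0, 5 and 48 counts in wild-type and 0, 5 and 12 counts in mutant PRPF6.

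The 3 secreted modulators all had higher fitted means in mutant PRPF6. Their median log2 difference was 1.23, or 0.46 without mutant replicate 1. Sfrp1 was the most abundant of the 3 per length in wild-type PRPF6, at 99.3 ± 38.5 CPM per kb against 23.2 ± 8.91 for Sfrp2 and 10.3 ± 2.61 for Dkk3. Secreted Frizzled-related proteins such as Sfrp1 and Sfrp2 bind Wnt ligands outside the cell.

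Sfrp2 (chromosome 3, 83766321 to 83774316, plus strand) was at 28.3, 65.1 and 56.3 CPM in wild-type and at 206, 80.3 and 97.9 CPM in mutant PRPF6. No mutant library was as low as a wild-type one, and replicate 1 was 2.11-fold above the next. The log2 difference was 1.36 ± 0.42 (edgeR unadjusted p = 0.0119, adjusted p = 1.00), and 0.84 ± 0.34 without mutant replicate 1 (unadjusted p = 0.0442). Sfrp1 showed a different order of libraries, at 514, 548 and 241 CPM in wild-type and 160, 604 and 588 CPM in mutant PRPF6. The lowest values of Sfrp1 were thus in mutant replicate 1 and wild-type replicate 3, and its log2 difference was 0.05 with all libraries and 0.46 without mutant replicate 1.

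Dkk3, a member of the Dickkopf family of secreted proteins (chromosome 7, 112116017 to 112159057, minus strand), was at 44.0, 33.2 and 26.6 CPM in wild-type and at 159, 41.6 and 41.8 CPM in mutant PRPF6. Apart from mutant replicate 1, 3.63-fold above the next library, the mutant values lay inside the wild-type range. For Dkk3 the log2 difference was 1.23 ± 0.53 (edgeR unadjusted p = 0.0481, adjusted p = 1.00), and 0.27 ± 0.28 without that library (unadjusted p = 0.359).

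**Figure D3:**
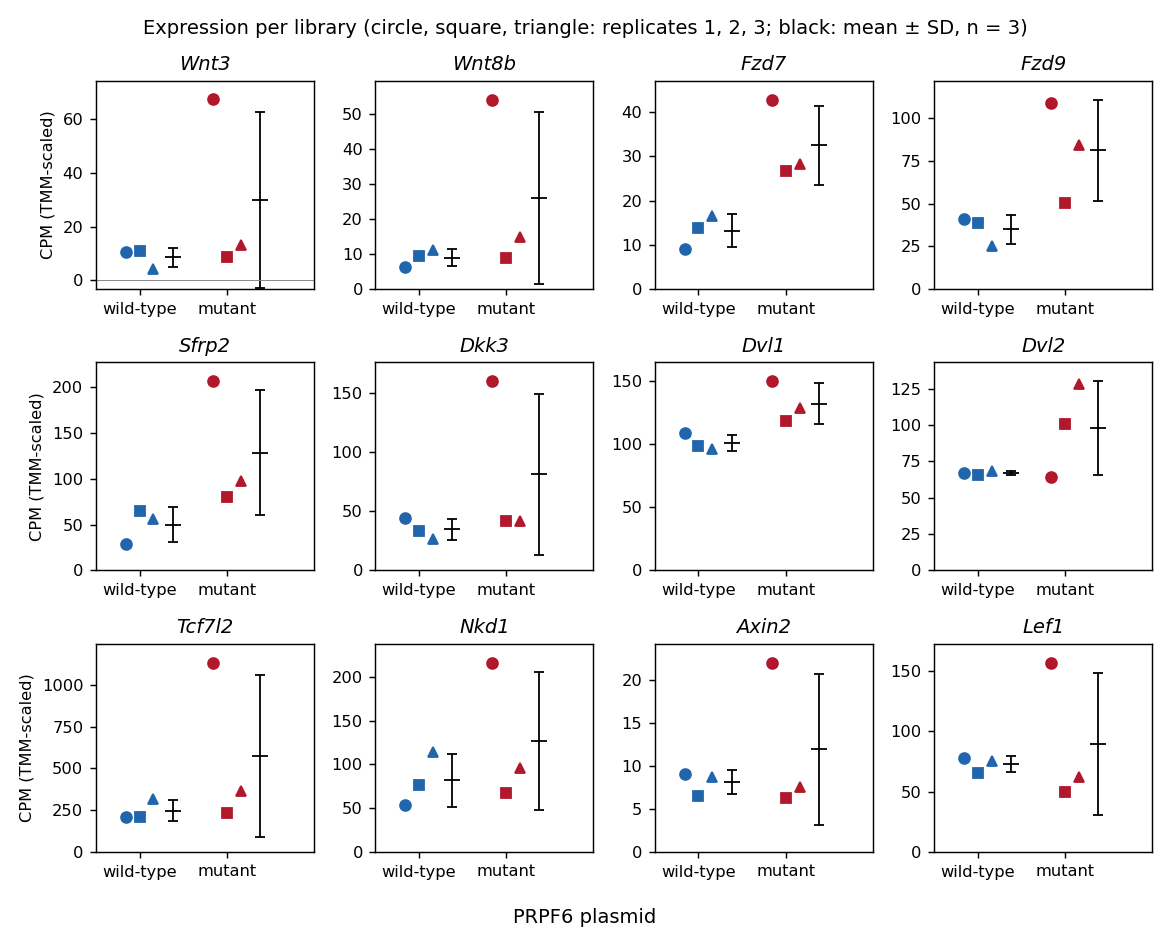
CPM in each library (circle, square and triangle for replicates 1, 2 and 3) beside the group mean and SD (black, n = 3) for 12 members, the 10 chosen by rule and Axin2 and Lef1. Fzd7, Fzd9, Sfrp2 and Dvl1 show mutant points that all lie above the wild-type points, whereas the high mutant means of Wnt3, Wnt8b, Dkk3 and Tcf7l2 come from replicate 1.

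Among the cytoplasmic components, 4 of 6 had higher and 2 lower fitted means, with a median log2 difference of 0.22, or 0.17 without mutant replicate 1. Dvl1 and Dvl2, whose Dishevelled proteins relay the signal from the Frizzled receptors, had the smallest unadjusted p of this class. Dvl1 (chromosome 4, 155847402 to 155859303, plus strand) was at 108, 98.4 and 95.7 CPM in wild-type and at 150, 118 and 128 CPM in mutant PRPF6. Its groups did not overlap, and the wild-type libraries were tightly spaced. For Dvl1 the log2 difference was 0.39 ± 0.16 (edgeR unadjusted p = 0.0403, adjusted p = 1.00), and 0.29 ± 0.17 without mutant replicate 1 (unadjusted p = 0.127).

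Dvl2 (chromosome 11, 70000595 to 70012301, plus strand) was at 66.9, 65.5 and 68.5 CPM in wild-type and at 64.2, 101 and 129 CPM in mutant PRPF6. Here mutant replicate 1 lay just below every wild-type library, and the other 2 lay above every one of them. The log2 difference of 0.55 ± 0.25 (edgeR unadjusted p = 0.0604, adjusted p = 1.00) was 0.78 ± 0.18 without that library (unadjusted p = 0.00369). Dvl3, the remaining Dishevelled gene, was at 105 ± 27.3 and 132 ± 32.7 CPM, a log2 difference of 0.33 within its spread, or 0.13 without mutant replicate 1. Exons of Dvl1 overlap Tas1r3 and those of Dvl2 overlap Acadvl and Mir324. Tas1r3 was at 0 to 2.99 CPM, whereas Acadvl, at 39.9 to 112 CPM, was of a level with Dvl2. No source used here states the strand setting of the counting, so reads from the overlapping exons could be shared. The deposited counts of Dvl1 and Dvl2 were whole numbers in every library.

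With all libraries, the genes of the complex that degrades β-catenin showed no difference beyond the spread of the libraries. Apc, its scaffold, was at 159 ± 10.8 CPM in wild-type and 145 ± 40.9 CPM in mutant PRPF6. Axin1, the other scaffold, was at 98.9 ± 28.2 and 106 ± 12.6 CPM. Gsk3b, the kinase of the complex, was at 242 ± 63.3 and 195 ± 17.4 CPM, a log2 difference of -0.31. Without mutant replicate 1 the log2 differences of Apc, Axin1 and Gsk3b were -0.22, 0.20 and -0.35. Without wild-type replicate 3 they were -0.18, 0.17 and -0.46 ± 0.20, the last with an edgeR unadjusted p of 0.0475 (adjusted p = 0.9998). The deposited counts of Gsk3b were not whole numbers in any of the 6 libraries.

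The nuclear factors and feedback genes had higher fitted means in 5 of 5 cases with all libraries, at a median log2 difference of 0.56, and in 3 of 5 without mutant replicate 1, at a median of 0.0022. Tcf7l2, a TCF factor that is abundant in the thalamus (chromosome 19, 55741820 to 55933654, plus strand), was at 207, 211 and 319 CPM in wild-type and at 1132, 233 and 361 CPM in mutant PRPF6. Mutant replicate 1 was 3.13-fold above the next library, and the groups overlapped. The log2 difference was 1.23 ± 0.53 (edgeR unadjusted p = 0.0488, adjusted p = 1.00), and 0.27 ± 0.27 without that library (unadjusted p = 0.344). Diencephalon genes were highest in the same library, and their part in the Tcf7l2 value was not tested.

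Axin2, a direct target of β-catenin that feeds back on the pathway, and Lef1, a TCF/LEF factor and target, are given here after their values were seen. Axin2 was at 9.09, 6.52 and 8.67 CPM in wild-type and at 22.0, 6.25 and 7.50 CPM in mutant PRPF6. Lef1 was at 78.2, 65.6 and 75.1 CPM in wild-type and at 157, 49.4 and 62.0 CPM in mutant PRPF6. In both genes mutant replicate 1 was the highest library, while the other 2 mutant libraries lay within or below the wild-type range. The log2 difference of Axin2 turned from 0.56 ± 0.57 to -0.23 without mutant replicate 1. That of Lef1 turned from 0.29 ± 0.40 to -0.39 ± 0.21.

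Nkd1, an inhibitor that binds Dishevelled and is itself induced by Wnt signalling (chromosome 8, 88521354 to 88594884, plus strand), was at 53.9, 76.8 and 114 CPM in wild-type and at 216, 67.3 and 95.9 CPM in mutant PRPF6. The log2 difference of 0.63 ± 0.44 (edgeR unadjusted p = 0.19, adjusted p = 1.00) was 0.0022 without mutant replicate 1. Tcf7l1, a TCF factor known mainly as a repressor, had the opposite order, at 50.4, 88.4 and 54.8 CPM in wild-type and 29.8, 83.4 and 117 CPM in mutant PRPF6, with replicate 1 the lowest library of all 6. Its log2 difference was 0.25 with all libraries and 0.63 without mutant replicate 1. Exons of Tcf7l1 overlap those of Gm15401, which was at most at 0.624 CPM.

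**Figure D4:**
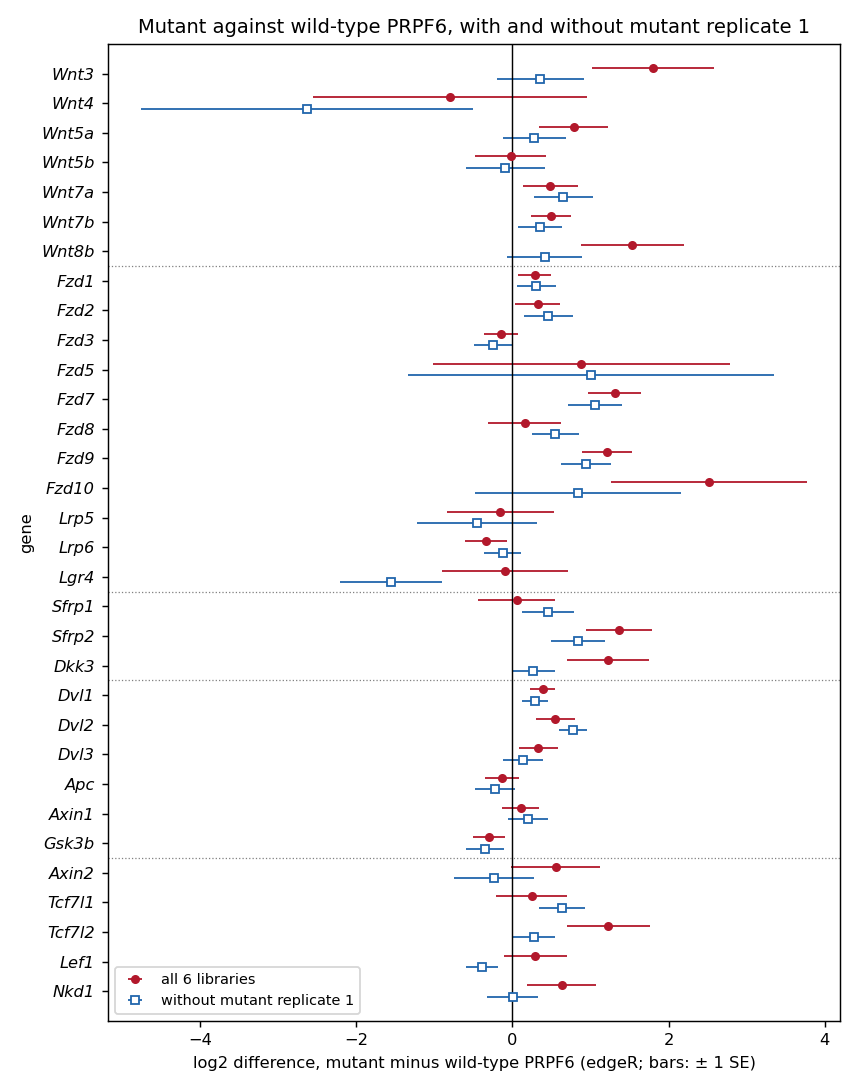
Log2 difference (mutant minus wild-type PRPF6) with its SE for each of the 32 members tested, from all 6 libraries and without mutant replicate 1. Fzd7, Fzd9 and Sfrp2 stay at 0.84 or above without that library, whereas Axin2 and Lef1 pass from above 0 to below 0.

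Elsewhere in the pathway, higher and lower genes were near even. A wider list of 95 other Wnt pathway names had 92 in the table and 76 tested, of which 40 were higher and 36 lower in mutant PRPF6. Its median log2 difference was 0.060, or -0.019 without mutant replicate 1. In edgeR 0 of the 76 passed the adjusted threshold, and 2 had an unadjusted p under 0.05, 1 of 76 in each direction, where 2.18% of all tested genes were higher and 1.20% lower at that threshold. In 4 of the 76 every mutant library lay above every wild-type library and in 4 every one lay below, against 4.60% and 4.54% of all tested genes. These shares are near those of all genes, and the genes named next are given as values. Sfrp4, another secreted Frizzled-related gene, had 1.53, 1.84 and 1.70 CPM in wild-type and 8.47, 5.10 and 5.47 CPM in mutant PRPF6, with a log2 difference of 1.91 ± 0.73 (edgeR unadjusted p = 0.0301, adjusted p = 1.00). Prickle1, of the planar cell polarity branch, was at 15.5, 11.5 and 11.2 CPM in wild-type and at 5.34, 8.26 and 3.24 CPM in mutant PRPF6, with a log2 difference of -1.18 ± 0.50 (edgeR unadjusted p = 0.0469, adjusted p = 1.00). Both genes are among the 8 whose groups did not overlap. Without mutant replicate 1 the log2 differences were 1.65 for Sfrp4 and -1.15 for Prickle1, with unadjusted p of 0.0934 and 0.0754. Ctnnb1, which encodes β-catenin itself, had a log2 difference of 0.13 ± 0.14, or 0.21 without mutant replicate 1.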

How the data were processed

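Libraries were made from total RNA of sorted cells with a low-input SMART-Seq kit and sequenced with paired ends, per the labels' protocols. The deposited table holds the authors' expected counts per gene from RSEM with the mm10 genome, per the submitters' processing notes. For the aligner, the RSEM version, the annotation and the strand setting, details were not given in the sources used here. Values that were not whole made up 8.15 to 9.15% of each library and were rounded. Genes with low counts were removed with filterByExpr (14451 of 24041 kept), and the groups of 3 were compared with edgeR 4.0.16 (TMM factors, robust quasi-likelihood test, R 4.3.3), with Benjamini-Hochberg adjustment over all tested genes. Differences are mutant minus wild-type PRPF6. CPM uses TMM-scaled totals, and CPM per kb divides by the exon length in GENCODE M21 (GRCm38), which also gave the gene positions. Limma-voom (limma 3.58.1), DESeq2 1.42.0, other scalings and filters, a replicate block and each library left out were the alternatives. The scripts were tested on simulated data. The members and lists were chosen with earlier results of these data known. Values in every library and the test were given for members with an unadjusted p under 0.05, members whose groups did not overlap, and the 2 members of smallest p in each role; Wnt4, Wnt5a, Wnt7a, Wnt7b, Fzd8, Fzd10, Lgr4, Sfrp1, Axin2, Lef1 and Tcf7l1 were added after their values were seen. Of the wider pathway list, genes with an unadjusted p under 0.05 were named.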

Additional observations from a re-analysis of the deposited data

How the results depend on the processing

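The counts of members higher in mutant PRPF6 and their median difference kept their direction under 15 alternatives, 1 of which was added after seeing the data and left out both wild-type replicate 3 and mutant replicate 1. The adjusted threshold was passed by 0 genes in each edgeR and limma-voom fit and by 6 genes in DESeq2. Members at an unadjusted p under 0.05 numbered 8 with all libraries in edgeR, where 489 of all 14451 tested genes had such a p. They numbered 4 in limma-voom, where 551 genes had one. They numbered 5 without robust estimation, 2 without both libraries, and 4 to 8 with each library left out in turn. Of these last fits, only that without mutant replicate 1 has its share of all genes given above. The other counts cannot be read against a share of all genes. The labels do not say whether same-numbered libraries were made together, though the deposited columns carry the same numbers in both groups. Deviations from the group mean correlated at 0.054, 0.061 and -0.256 for same-numbered libraries. For libraries of unlike number they correlated at -0.255 to 0.257. With 3 libraries a group, such values cannot decide whether the libraries are paired. A fit with the number as a block gave 4 members at an unadjusted edgeR p under 0.05, again with no share of all genes to set beside it. The sign held in every alternative for 19 members and turned in at least 1 for 13. In limma-voom the log2 difference became 0.062 for Wnt5b, -0.065 for Fzd8, 0.0084 for Lrp5 and -0.11 for Sfrp1, and with the replicate block 0.084, -0.020, 0.069 and -0.067. Without both libraries it became -0.70 for Lrp5, -0.016 for Dvl3, -0.18 for Axin2 and -0.36 for Lef1. With each library left out in turn the log2 difference ranged from -2.64 to 0.18 for Wnt4, from -0.33 to 0.28 for Wnt5b, from -0.13 to 1.50 for Fzd5, from -0.29 to 0.55 for Fzd8, from -0.49 to 0.71 for Lrp5, from -1.56 to 0.33 for Lgr4, from -0.23 to 0.46 for Sfrp1, from -0.29 to 0.080 for Apc, from -0.11 to 0.28 for Axin1, from -0.23 to 0.87 for Axin2, from -0.39 to 0.59 for Lef1 and from -0.19 to 0.63 for Tcf7l1. The causes were not tested. With 3 libraries a group and a median SE of 0.341 on the log2 scale, differences of the size seen in most members were not detectable one by one.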

Other observations

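Among the wider Wnt pathway genes, 25 of 76 were highest in mutant PRPF6 replicate 1, against 23.3% of all tested genes. Rspo3, which encodes an R-spondin that strengthens Wnt signals, had 48.9, 31.3 and 42.3 CPM in the wild-type libraries, in the order of replicates 1, 2 and 3, and 145, 31.1 and 19.2 CPM in the mutant ones; it is also one of the 9 cortical hem and choroid plexus markers. Wls, whose protein carries Wnt ligands to the cell surface, was at 24.1, 72.8 and 66.9 CPM in wild-type and at 180, 57.4 and 35.1 CPM in mutant PRPF6. Tnfrsf19, a Wnt target, was at 162, 166 and 116 CPM in wild-type and at 310, 151 and 204 CPM in mutant PRPF6. In Rspo3 and Wls the other 2 mutant libraries did not exceed the highest wild-type library, and in Tnfrsf19 mutant replicate 3 did. These 3 genes were picked after their values were seen, and the differences between mutant libraries were not tested.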
